A study of Homo sapiens with 6 samples.

Results

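To follow the transcripts by which breast cancer stem-like cells are commonly recognised, 10 marker genes were read with and without LINC00115 KD. The libraries are described as those of PTX-resistant MDA-MB-231 BCSC. The markers are the surface proteins Cd44, Cd24a, Prom1, Epcam and Procr, the transcription factors Klf4, Klf5, Myc and Sox9, and the Polycomb subunit Bmi1. Each was taken as the row of the count table with exactly that gene symbol, and all 10 were found among the 22989 genes listed. MDA-MB-231 is an established line of human breast cancer cells of the triple-negative type, PTX is paclitaxel, a drug that stabilises microtubules, and BCSC are the cells sorted for high aldehyde dehydrogenase (ALDH) activity. The comparison was between 3 libraries labelled LINC00115 KD, which carry an shRNA against this lncRNA, and 3 libraries labelled WT (here control), and both groups share the paclitaxel resistance and the BCSC label.

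Breast cancer stem-like cells are classically isolated by a CD44-high, CD24-low surface pattern or by ALDH activity. CD44 is the receptor for hyaluronan, CD24 is a small glycosylated adhesion protein, PROM1 (CD133) is a pentaspan membrane glycoprotein, EPCAM is an epithelial adhesion molecule and PROCR is the endothelial protein C receptor, which also marks multipotent cells of the mammary gland. KLF4, KLF5, MYC and SOX9 are transcription factors of self-renewal and progenitor programmes, and BMI1 is a subunit of Polycomb repressive complex PRC1, which silences the CDKN2A locus.

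The limits of the groups come first. The KD samples are numbered sh115-1 to sh115-3 in the labels, whereas the study describes 2 hairpins, called sh115-1 and sh115-2, and ties its RNA-seq comparison to the second, so whether the 3 KD libraries carry the same hairpin is uncertain. The labels do not say whether replicates are separate cultures, and p-values then measure only the spread between these libraries. The table lists 0 genes named LINC00115, so the knockdown itself could not be checked and every direction rests on the group labels. Gene symbols are those of mouse genes (Cd24a, for example, is the mouse name of the CD24 gene), with 4650 Gm and 1129 Rik names. The labels give a human line. Gm and Rik names belong to a mouse gene annotation, whereas the species of the reads could not be settled. The levels below may therefore not be those of human genes. Symbols are printed here as listed and without genome positions. Library totals lay between 37142290 and 37656117 counts in the control and between 36979221 and 38799331 counts in the KD libraries. In a chi-square test of counts over genes, divided by its degrees of freedom so that sampling noise alone gives about 1, library pairs within a group reached 3.88 to 7.60 and pairs across the groups 206 to 226, and none was a copy of another.

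Of the 10 markers, 8 had enough reads to be tested. Cd24a and Sox9 fell in the KD libraries, Procr, Myc, Klf4 and Klf5 rose, and Cd44 and Bmi1 did not pass the test. Prom1 and Epcam were hardly counted in any library. "Rose" and "fell" are used here where edgeR's quasi-likelihood test, adjusted over 13497 genes, gave p below 0.05, and "called" for genes that also changed more than 2-fold, the study's own thresholds. By these thresholds 1 marker, Procr, was called higher (12.5% of the 8 tested), against 10.2% of all genes tested, and 0 were called lower, against 9.98%. No marker was called lower at an unadjusted p under 0.05 with the same fold either, and DESeq2 also called 0. Without the fold threshold 4 markers were higher (50%) and 2 lower (25%), beside 36.7% higher and 36.7% lower of all genes tested. The libraries of the groups did not overlap for the same 4 markers above and 2 below, where 37.8% of all genes tested lay above and 37.8% below. With so many genes moving, these shares are no result about the markers as a class, and the sections that follow describe them gene by gene.

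**Figure D1:**
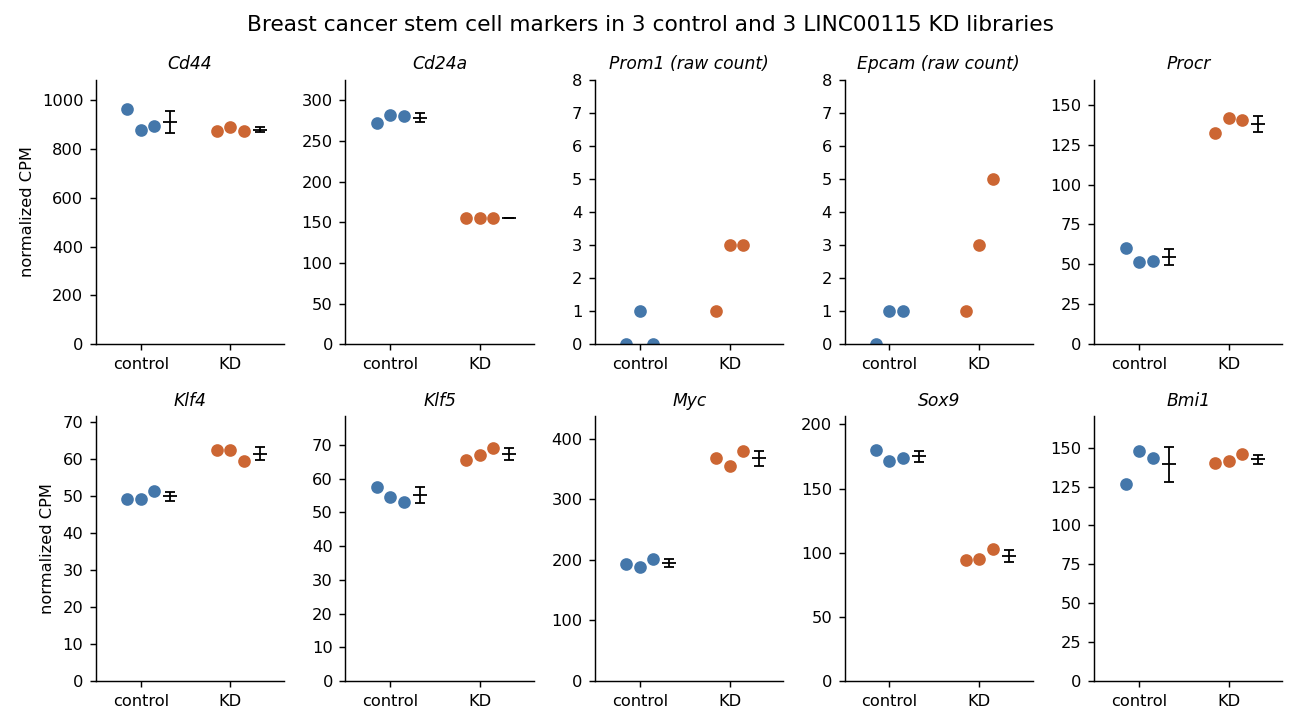
Level of each of the 10 markers in the 3 control (blue) and 3 KD (orange) libraries, on a linear axis from 0 in normalized CPM, with the mean and SD in black; Prom1 and Epcam are shown as raw counts. The groups separate fully for Cd24a, Procr, Klf4, Klf5, Myc and Sox9, and overlap for Cd44 and Bmi1, while Prom1 and Epcam stay at 5 counts or fewer.

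Cd44 was abundant and hardly moved. It had 36274, 33095 and 33742 counts in the control and 33816, 32751 and 33118 in the KD libraries, which corresponds to 963, 877 and 893 against 874, 892 and 872 normalized CPM (counts scaled for library size and by edgeR's TMM factors). Control replicate 1 was the highest of the 6 and the other libraries interleaved. The mean level was 911 ± 45.8 in the control and 879 ± 11.0 normalized CPM in the KD libraries (SD, n = 3 each). On the log2 scale the fold change was −0.05, with a 95% interval from −0.12 to 0.02 (adjusted p = 0.161 by edgeR). Any change of Cd44 was therefore small. Whether it passed depended on the scaling: its adjusted p was 0.0128 with upper quartile scaling (log2 fold change −0.09) and 0.0489 with library size alone (−0.07), both by edgeR. Without control replicate 1, the log2 fold change was −0.01 (adjusted p = 0.760).

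Cd24a fell. It had 10261, 10666 and 10616 counts in the control and 5997, 5687 and 5905 in the KD libraries. The levels were 272, 283 and 281 normalized CPM in the control and 155, 155 and 155 in the KD libraries, so the KD libraries were close to identical and lay well below all controls. This was a 1.80-fold decrease, short of the 2-fold threshold (log2 fold change −0.84, 95% interval −0.92 to −0.77, adjusted p = 4.74e-21 by edgeR).

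Because Cd24a fell and Cd44 hardly moved, the balance of the pair shifted. The ratio of Cd44 to Cd24a counts within a library, which needs no scaling between libraries, was 3.54, 3.10 and 3.18 in the control and 5.64, 5.76 and 5.61 in the KD libraries. All KD libraries lay above all control libraries. The difference on the log2 scale was 0.80, a 1.74-fold higher ratio in the KD libraries, with means of 1.71 ± 0.10 and 2.50 ± 0.02 (SD, n = 3 each). The exact permutation test, two-sided, gave p = 0.1, which is the smallest that 3 libraries against 3 allow. These are transcript ratios of bulk RNA: fewer cells of a type and less RNA per cell cannot be told apart, and gene length makes the ratio itself no ratio of molecules.

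**Figure D2:**
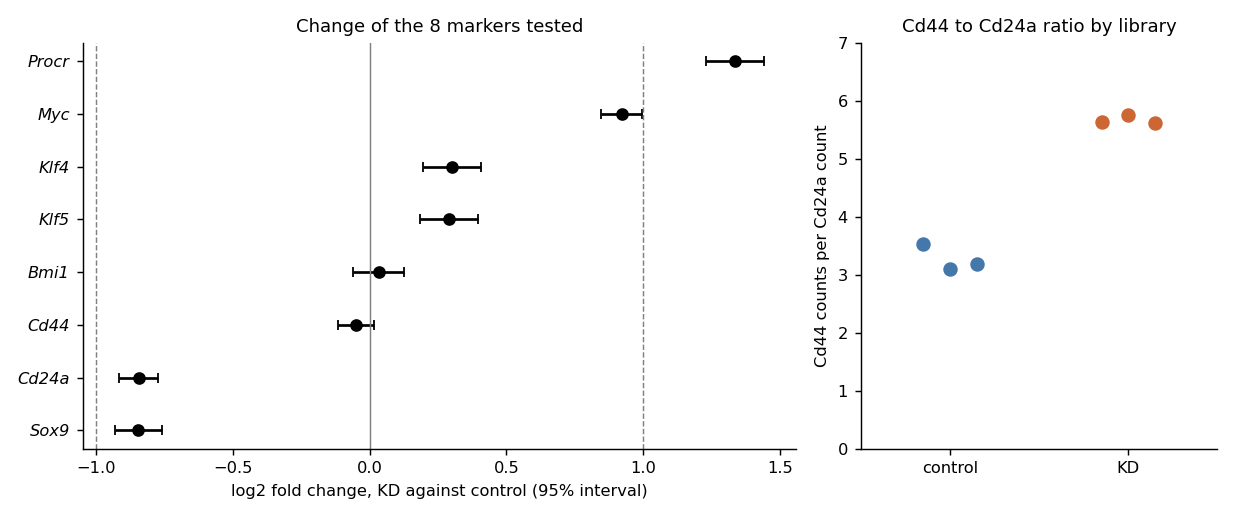
Left, log2 fold change of the 8 markers tested (points) with 95% intervals (bars), dashed lines at a 2-fold change either way; Procr alone lies beyond a dashed line, the interval of Myc ends at 0.99, and the intervals of Bmi1 and Cd44 include 0. Right, Cd44 counts per Cd24a count in each library on an axis from 0, with 3.10 to 3.54 in the control and 5.61 to 5.76 in the KD libraries.

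Procr rose most of the markers. Its counts were 2276, 1944 and 1980 in the control and 5125, 5209 and 5326 in the KD libraries. In normalized CPM these are 60.4, 51.5 and 52.4 against 132, 142 and 140, with control replicate 1 the highest control and every KD library more than double it. This was a 2.52-fold increase (log2 fold change 1.34, standard error 0.05, adjusted p = 3.54e-22 by edgeR). In size it lay above 85.9% of the changes of all genes tested, a large but not exceptional change in this comparison. Since PROCR is also an endothelial protein, endothelial genes were read beside it. Of 8 endothelial markers, Cdh5 (VE-cadherin) had 14, 5 and 6 counts in the control and 2175, 2136 and 2243 in the KD libraries, while Pecam1, Kdr, Tek and Emcn had at most 19 counts in any library and Flt1 fell (log2 fold change −0.57). The summed level of the endothelial list was 92.6 to 95.7 normalized CPM in the control and 120 to 127 in the KD libraries, and Cdh5 was its only called member. On average Cdh5 went from 0.221 to 57.8 normalized CPM, while Flt1 fell from 84.1 to 56.9 and Egfl7 from 9.21 to 7.15. Of the 5 endothelial genes tested, 1 rose and 2 fell, so the higher sum was that of Cdh5 and not of the list.

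Prom1 and Epcam could not be compared. Prom1 had 0, 1 and 0 counts in the control and 1, 3 and 3 in the KD libraries. Epcam had 0, 1 and 1 counts in the control and 1, 3 and 5 in the KD libraries. All but 1 of these values are at or under 3 counts, the limit that a count of 0 allows (0.0776 to 0.0817 normalized CPM here, for counting error only), so no fold change is given. When the low-count filter was left out, edgeR's adjusted p was 0.291 for Prom1 and 0.342 for Epcam. Partners of these proteins were also at or near 0: Prom2, the paralog of Prom1, had at most 1 count, and Cldn7, the claudin that binds EPCAM, had at most 10. Esrp1, the epithelial splicing factor that shapes CD44 isoforms, had at most 4 counts, whereas its paralog Esrp2 had 41 to 67.

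The labelled cell type was checked against the same kind of markers. The luminal keratins Krt8 and Krt18 were abundant (472 and 129 normalized CPM on average in the control, 752 and 236 in the KD libraries), as was the mesenchymal filament Vim (3418 and 3736). The hormone receptor Pgr had at most 3 counts. The estrogen receptor gene Esr1 had 29, 26 and 24 counts in the control and 105, 82 and 104 in the KD libraries and was called higher (log2 fold change 1.87), as was Cdh1, E-cadherin, on 2, 1 and 3 against 22, 30 and 31 counts (3.71). The summed luminal list (9 genes listed) was 693 to 711 normalized CPM in the control and 1015 to 1063 in the KD libraries, the mesenchymal list (8 genes) 6156 to 6330 and 5784 to 5969, and the basal list (6 genes) 1.04 to 8.79 and 6.62 to 8.85. Markers of other cells were read too. For comparison, 37.8% of all genes tested had all KD libraries above all control libraries, and 37.8% had them below. Of 13 lung genes, 13 had all KD libraries above all control libraries, with a summed level of 1.78 to 2.09 normalized CPM in the control and 74.9 to 85.4 in the KD libraries. Of 13 kidney genes, 11 did, with 16.8 to 19.8 against 46.3 to 50.6. Of 12 leukocyte genes, 4 did, with 72.0 to 86.1 against 144 to 160, while Ptprc (CD45) had at most 13 counts. Fibroblast genes went the other way for 3 of 7, with 175 to 193 against 76.4 to 78.4. Nearly all of the fibroblast sum was Pdgfra, which fell from 177 to 74.5 normalized CPM on average. The collagen genes Col1a1, Col1a2 and Col3a1 had at most 20 counts in any library, with overlapping groups. Lung and kidney epithelia also express several of the markers described here, among them Epcam, Prom1, Cd24a, Klf5 and Sox9. In the KD libraries Klf5 rose (log2 fold change 0.29), Cd24a (−0.84) and Sox9 (−0.85) fell, and Epcam and Prom1 had at most 5 counts. The part of such RNA in the marker changes was not tested.

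Among the transcription factors, Myc rose most. It had 7293, 7085 and 7616 counts in the control and 14234, 13044 and 14431 in the KD libraries. These are 194, 188 and 202 against 368, 355 and 380 normalized CPM, and the lowest KD library lay far above the highest control library. This was a 1.89-fold increase (log2 fold change 0.92, standard error 0.04, adjusted p = 7.03e-22 by edgeR). Its 95% interval, 0.85 to 0.99, ended just under a 2-fold change, and Myc was called in none of the alternatives that keep the 2-fold threshold.

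Klf4 and Klf5 rose by small and nearly equal amounts. Klf4, one of the reprogramming factors, had 1854, 1857 and 1936 counts in the control and 2414, 2293 and 2263 in the KD libraries (log2 fold change 0.30, standard error 0.05, adjusted p = 4.62e-06, edgeR). Klf5, its relative that is prominent in basal-type breast cancer, had 2171, 2065 and 2002 counts in the control and 2536, 2466 and 2630 in the KD libraries (log2 fold change 0.29, standard error 0.05, adjusted p = 7.37e-06, edgeR). Both groups separated for both genes, by 1.23-fold and 1.22-fold. The log2 ratio of Klf4 to Klf5 was −0.14 ± 0.09 in the control and −0.13 ± 0.08 in the KD libraries (SD, n = 3 each), a difference of 0.01 with p = 0.9 in the exact permutation test, two-sided, of which the smallest possible p is 0.1. The sign of this difference changed when single libraries were left out (−0.03 to 0.06).

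Sox9 fell, like Cd24a. This factor of stem and progenitor cells of many epithelia had 6773, 6482 and 6571 counts in the control and 3638, 3493 and 3916 in the KD libraries. The levels were 180, 172 and 174 against 94.1, 95.1 and 103 normalized CPM, and KD replicate 3, the highest KD library, was still far below the lowest control. This was a 1.80-fold decrease (log2 fold change −0.85, standard error 0.04, adjusted p = 5.53e-19 by edgeR).

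Bmi1 did not pass the test. It had 4765, 5593 and 5416 counts in the control and 5430, 5185 and 5537 in the KD libraries, or 126, 148 and 143 against 140, 141 and 146 normalized CPM. Control replicate 1 was the lowest of the 6 libraries and control replicate 2 the highest, with the KD libraries in between. The log2 fold change was 0.03 with a 95% interval from −0.06 to 0.12 (adjusted p = 0.530, edgeR's quasi-likelihood test), and its sign depended on the setting: it was −0.01 with upper quartile scaling and −0.03 without control replicate 1.

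The spread between libraries differed among the 8 markers tested. In the control libraries, the coefficient of variation was lowest for Cd24a (1.96%), Klf4 (2.36%) and Sox9 (2.38%) and highest for Procr (8.96%), Bmi1 (8.17%) and Cd44 (5.03%), 3 genes for which control replicate 1 stood apart from the other controls. In the KD libraries it ranged from 0.190% for Cd24a to 5.07% for Sox9.

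To set the markers in their pathways, related genes were read from lists. The lists are described by counts, beside the shares of all genes tested given above and a median log2 fold change of −0.01 over all genes tested.

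**Figure D3:**
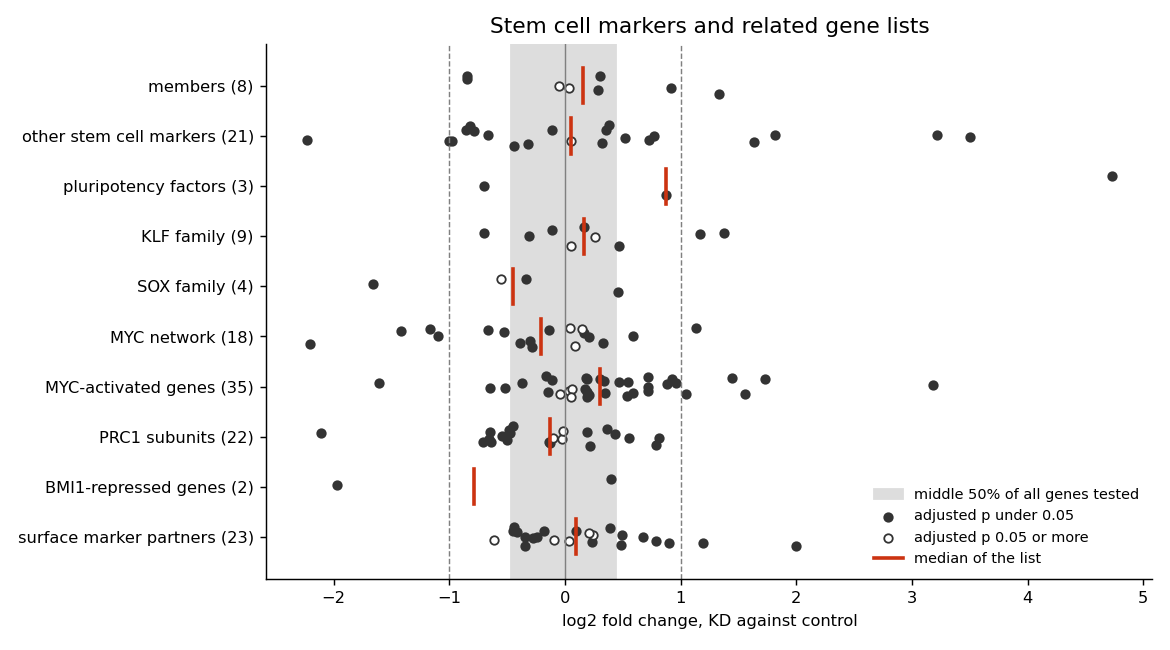
Log2 fold change (x axis) of the markers ("members") and of 9 related lists, 1 point per gene tested, filled where the adjusted p was under 0.05; the number tested is in brackets, red bars are list medians, the grey band holds the middle 50% of all genes tested and dashed lines mark a 2-fold change. Most MYC-activated genes lie right of 0, and 10 of the 18 MYC network genes lie left of it.

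Other stem cell markers went both ways. Of 28 in the table, 21 were tested, 10 fell and 10 rose, and the median log2 fold change was 0.05. Of the 21, 2 were called lower (9.52%) and 4 higher (19.0%), beside 9.98% and 10.2% of all genes tested. Ly6a, the gene of the mouse stem cell antigen Sca-1, had 3187, 3963 and 3951 counts in the control and 34610, 33092 and 35717 in the KD libraries, a 9.30-fold increase (log2 fold change 3.22, standard error 0.05, adjusted p = 9.63e-34, edgeR). The drug efflux transporter Abcg2, which gives the side population of stem cells, rose from 15, 18 and 5 to 143, 153 and 140 counts (log2 fold change 3.51), and the adhesion molecule Alcam (CD166) rose 3.11-fold. Aldh1a1, a main enzyme behind the ALDH assay by which these cells were sorted, rose on few counts, from 12, 8 and 17 to 52, 39 and 41 (log2 fold change 1.82), and Aldh1a3 had at most 4 counts. Among the 10 that fell were the HLH factor Id4 and Itga6 (CD49f), an integrin used to sort mammary stem cells. Itga6 fell 1.36-fold, from 616 to 454 normalized CPM. Dclk1 (log2 fold change −0.97), Lgr6 (−0.86), Lrp6 (−0.82), Dll1 (−0.79) and Itgb3 (−0.67) fell more than Itga6, each less than 2-fold. These genes were named after their values were seen. Id4 fell 2.00-fold and was called only at the edge of the threshold (log2 fold change −1.003 in the reported fit, −0.9958 with DESeq2's size factors), and Kit, chosen after its values were seen, was called lower on 45, 38 and 3 counts in the control against 6, 10 and 2.

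Pluripotency factors were nearly all uncounted. Of 12 in the table, 3 were tested; Sox2 had at most 4 counts in any library, and Pou5f1 and Nanog are not analysed here because the table has no row with these symbols. Klf2, tested here and with the KLF family, fell (290, 228 and 254 counts in the control, 145, 172 and 159 in the KD libraries, log2 fold change −0.70). Tfcp2l1, chosen after its values were seen, was the 1 gene called higher (2, 4 and 2 against 88, 58 and 77 counts).

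Among the relatives of Klf4 and Klf5, 9 of 14 KLF genes in the table were tested, 4 rose, 3 fell and the median was 0.16. Klf6 had 6158, 6058 and 6193 counts in the control and 13944, 13492 and 13911 in the KD libraries, a 2.24-fold increase (adjusted p = 1.35e-25, edgeR), and Klf16 rose 2.60-fold. Both were called higher, so larger increases were found in this family than those of Klf4 and Klf5, and 0 KLF genes were called lower by edgeR or DESeq2, and 0 at an unadjusted p with the same fold.

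Among the relatives of Sox9, 4 of 12 SOX genes in the table were tested. Sox4, a progenitor factor, fell by 0.34 on the log2 scale, from 11368, 11557 and 10796 to 9115, 8429 and 9155 counts. Sox5, which acts with SOX9 in cartilage, was called lower, from 461, 587 and 546 to 175, 165 and 165 counts (log2 fold change −1.66, adjusted p = 7.70e-14, edgeR). Sox12 rose (0.46), and Sox15 had a log2 fold change of −0.55 on 2 to 20 counts without passing the test.

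In the network around Myc, its partner Max rose and several competitors for Max fell. MYC acts as a dimer with MAX, and the MXD proteins, MXI1, MNT and MGA compete with it for MAX. Max rose by 0.59 on the log2 scale, from 55.3 ± 1.90 to 83.1 ± 2.24 normalized CPM (SD, n = 3 each). Of the competitors, Mxi1 fell from 6516, 6321 and 6136 to 1405, 1427 and 1290 counts, by 2.20 on the log2 scale (adjusted p = 4.19e-29 by edgeR), Mxd1 fell by 1.41 and Mxd3 by 1.17, and all 3 were called lower. Mnt (−0.66), Mxd4 (−0.53) and Mga (−0.39) also fell, each less than 2-fold. Mycl was called lower on 95, 95 and 114 against 58, 45 and 39 counts, and Mycn had at most 3 counts. The deubiquitinase Usp36, which stabilises MYC protein, was called higher (2.20-fold), while Fbxw7, the ubiquitin ligase subunit that degrades it, did not pass the test (log2 fold change 0.15, adjusted p = 0.110, edgeR). Of the 18 network genes tested, 10 fell and 5 rose, with a median of −0.21, and 4 were called lower (22.2%) and 1 higher (5.56%). Among all genes tested, 9.98% were called lower and 10.2% higher.

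Of 35 genes known to be activated by MYC, all of them tested, 24 rose (68.6%, beside 36.7% of all genes tested) and 7 fell (20%), and the median log2 fold change was 0.30. Most of the 24 changed less than 2-fold. With that threshold 5 were called higher (14.3%, beside 10.2% of all genes tested) and 1 lower (2.86%, beside 9.98%). Called higher were the ribosome assembly factor Rrs1 (log2 fold change 1.73), the RNA polymerase I subunit Polr1b (1.55), the spermidine synthase Srm (1.44), the nucleolar protein Nop56 (1.05) and, on at most 28 counts, Ccnd2 (3.19). Rrs1 had 1448, 1593 and 1786 counts in the control and 5594, 5015 and 5427 in the KD libraries, a 3.32-fold increase. Classical targets moved less: Odc1, ornithine decarboxylase, rose 1.46-fold, Ncl, nucleolin, rose 1.14-fold and Npm1, nucleophosmin, did not pass the test (log2 fold change 0.04). Cdk4 fell (−0.65), and Tert, the telomerase subunit, was called lower, from 186, 163 and 197 to 58, 62 and 59 counts (−1.61).

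**Figure D4:**
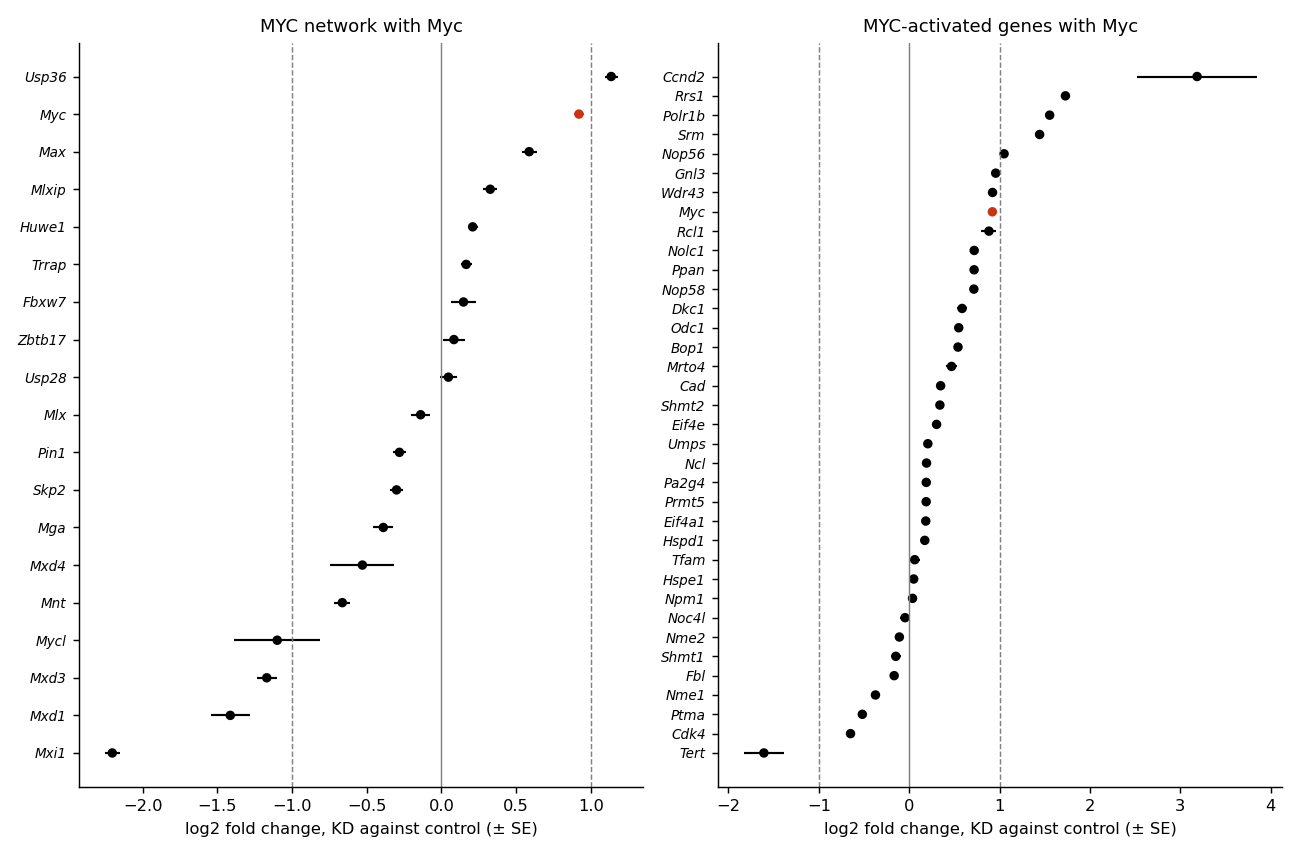
Log2 fold change (points) with its standard error (bars) of the MYC network genes (left) and of MYC-activated genes (right), in order of size and each with Myc in red; dashed lines mark a 2-fold change and the panels have different x axes. Mxi1, Mxd1, Mxd3 and Mycl lie below a 2-fold decrease, and Rrs1, Polr1b, Srm, Nop56 and Ccnd2 lie above a 2-fold increase.

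The other subunits of PRC1, the complex of Bmi1, went both ways. Of 22 tested, 12 fell (54.5%) and 7 rose (31.8%), with a median log2 fold change of −0.13. Rnf2 (RING1B), the catalytic subunit, had 65.7 ± 3.82 normalized CPM in the control and 47.0 ± 1.80 in the KD libraries (SD, n = 3 each) and fell by 0.48 on the log2 scale, Pcgf2 (MEL18), the closest paralog of Bmi1, fell by 0.65 and Cbx7 by 0.45 on the log2 scale. Ring1, the other catalytic subunit, rose (708, 600 and 549 counts in the KD libraries against 453, 501 and 422 in the control, log2 fold change 0.43), as did L3mbtl2 (0.81) and Yaf2 (0.79), 3 genes named after their values were seen. Bcorl1, a corepressor of a variant complex, was the only called subunit, from 2056, 2045 and 2007 to 463, 521 and 434 counts (log2 fold change −2.11, adjusted p = 3.32e-23, edgeR). By edgeR and DESeq2, 0 subunits were called higher, and 0 at an unadjusted p with the same fold. The genes that BMI1 is known to silence could mostly not be followed: Cdkn2a had at most 1 count and Cdkn2b at most 1 count in every library of both groups. Cdkn1a, the CDK inhibitor p21, was called lower, from 10600, 9329 and 9206 to 2657, 2350 and 2464 counts (log2 fold change −1.97, adjusted p = 3.21e-28, edgeR).

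Ligands and partners of the surface markers were read last. Of 30 in the table, 23 were tested, 10 rose, 8 fell and the median was 0.10. Spp1 (osteopontin), a ligand of CD44 named here after its values were seen, had 62625, 69821 and 68695 counts in the control and 126476, 121460 and 128396 in the KD libraries (log2 fold change 0.90). Has2, which makes the CD44 ligand hyaluronan, fell (−0.42), as did Adam10 (−0.44) and Adam17 (−0.45), proteases that shed CD44 and EPCAM. Mmp14, another protease of this list, rose slightly (0.10), with overlapping groups. Of the ERM proteins that tie CD44 to actin, Rdx rose by 0.79 and Ezr by 0.24, and Msn did not pass the test (0.03). Selp, P-selectin, a receptor of CD24, was called higher, from 407, 523 and 491 to 1961, 1842 and 1899 counts (log2 fold change 2.00, adjusted p = 3.70e-22, edgeR). Around Procr, the protease-activated receptor F2rl1 was called higher (2.29-fold), F2r fell (−0.24), and Thbd, thrombomodulin, had at most 9 counts. In this list 0 genes were called lower by edgeR or DESeq2, and 0 at an unadjusted p with the same fold.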

How the data were processed

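RNA-seq of 3 LINC00115 KD and 3 control samples was analysed from the read counts per gene that the authors deposited without normalization. The authors trimmed adapters and mapped reads with HISAT2. The methods name hg19, while the submitters' processing notes name hg38, featureCounts and DESeq2. Beyond the mouse gene symbols, neither annotation nor strandedness of counting is given in the sources used here. Counts of paralogs and overlapping genes may therefore be split in unknown ways. Columns were matched to samples by the descriptions in the labels.

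The software was edgeR 4.0.16 under R 4.3.3. Low genes were removed with filterByExpr at a minimum count of 10 and a total of 15, and the rest were scaled by TMM (factors 0.990 to 1.01) and tested by the quasi-likelihood test for the group alone, with Benjamini-Hochberg adjustment over 13497 genes. Thresholds were an adjusted p under 0.05 and a fold change over 2. Standard errors are the log2 fold change divided by the root of F. Totals of 36979221 to 38799331 counts set the precision. Ratios within libraries were compared by exact permutation tests, two-sided. The pipeline was tested on simulated data.

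The markers and lists were chosen with earlier results of these data known. All 10 markers are named; from each related list, up to 4 called genes each way (by size of change, without overlap of the groups, and with 100 counts or more in each library of the group that is higher) and a fixed set of partners. Other genes were named after their values were seen, and a few genes of the lists are not reported here. Alternatives were other scalings (DESeq2's size factors, upper quartile, library size), other filters, each replicate left out, a block for replicate number, DESeq2 1.42.0's Wald test, no fold threshold and, for ratios, 0.5 added to each count. Same-numbered samples did not deviate together (r of −0.02 to 0.04), so the numbers were not taken as pairs.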

Additional observations from a re-analysis of the deposited data

How the results depend on the processing

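Over 13 alternatives each, the 8 markers tested gave 104 log2 fold changes, of which 102 kept their direction and their side of the thresholds. The exceptions were Bmi1 with upper quartile scaling (−0.0086) and without control replicate 1 (−0.033), over a range of −0.033 to 0.080 with replicates left out. By the adjusted p alone, Cd44 was also under 0.05 with upper quartile scaling and library size alone. The counts of called markers (0 lower, 1 higher) moved only without the fold threshold, to 2 and 4. Leaving out that threshold gave, lower and higher, 10 and 10 other stem cell markers, 1 and 2 pluripotency factors, 3 and 4 KLF genes, 2 and 1 SOX genes, 10 and 5 MYC network genes, 7 and 24 MYC-activated genes, 12 and 7 PRC1 subunits and 8 and 10 surface marker partners, and 1 BMI1-repressed gene higher. Other stem cell markers called lower were 1, not 2, with DESeq2's size factors, DESeq2's test and at least 10 counts in every sample, and 0 to 3 with replicates left out (0 without control replicate 1, 3 without control replicate 3). Id4 lost its call with DESeq2's size factors, with DESeq2's test and without 4 of the 6 libraries, and kept it with at least 10 counts in every sample. The cause of the other shifts was not tested. That count filter, which removes genes low in 1 group, left 2 of 4 other stem cell markers and 0 of 1 pluripotency factor called higher, and without any filter 2 were. For SOX genes called higher, 0 became 1 without a filter, with DESeq2 and in 0 to 1 with replicates left out. For surface marker partners called lower the range was 0 to 1. The Klf4 to Klf5 difference changed sign with replicates left out (−0.030 to 0.059). With the replicate block, the log2 fold change of Procr was 1.34, 1 marker was called higher and no call of a marker changed. Depth limits Prom1 and Epcam, for which no difference was detectable.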

Other observations

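Keratins of the basal mammary layer differed within the control group. Krt5 had 0, 0 and 92 counts and Krt14 had 7, 30 and 192 counts in control replicates 1 to 3, against 0, 0 and 0 and 31, 28 and 19 counts in the KD libraries. Krt17 had 24, 27 and 28 counts in the control and 164, 215 and 220 in the KD libraries and was called higher (log2 fold change 2.92, edgeR's quasi-likelihood test). Control replicate 3, the library with the most Krt5 and Krt14, was not the control library that stood apart for Cd44, Procr and Bmi1, which was control replicate 1.

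The stromal receptor Pdgfra had 6585, 7115 and 6393 counts in the control and 2902, 2774 and 2770 in the KD libraries and was called lower (log2 fold change −1.25, edgeR's quasi-likelihood test). The luminal factor Gata3 fell (log2 fold change −0.85) while the luminal keratins Krt8 (0.67) and Krt18 (0.87) rose, so the luminal genes did not share a direction.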
